A study of Oryza sativa with 6 samples.

Results

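The regions described here are stretches of the rice genome where acetylation of histone H3 at lysine 9 (H3K9ac) was called in every leaf library from caterpillar-infested seedlings, in no library from uninfested seedlings, and far from any place where an uninfested library had a call. They were selected by these calls. The peak intervals of the 6 lists on the 12 nuclear chromosomes were merged wherever they overlapped by at least 1 bp. A merged region is a member when all 4 infested lists call it, neither control list does, and more than 10 kb separate its edge from the nearest merged region with a call in at least 1 control list. There were 1475 such regions among 17468 merged regions, and they are called far regions below. The other 593 regions with the same calls lay 10 kb or less from a control region and are called near regions.

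All libraries came from leaves of rice (Oryza sativa) seedlings aged 20 days. The control seedlings carried no insect, and the others had been fed on by Spodoptera frugiperda (fall armyworm caterpillars) for a time of 3 h or 12 h, with 2 libraries in each of the 3 groups. Nuclei were profiled by CUT&Tag, in which an antibody to the mark guides a transposase that cuts and tags the DNA nearby. The rice cultivar, the number of larvae per plant and whether replicates came from separate plants are not stated in the labels, so every p-value below reflects how far these libraries differ among themselves, which may be a technical spread.

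H3K9ac is placed by histone acetyltransferases and removed by histone deacetylases, and it is found mainly around the starts of genes that are being transcribed. In plants, wounding and herbivory activate jasmonate signalling and broad changes in transcription, and acetylation at promoters is one of the layers at which stress genes are regulated. A leaf holds many cell types, so more acetylation per cell and more cells that carry the mark cannot be told apart in these data. Genes and sequence at the regions were not analysed here. Coordinates refer to build IRGSP-1.0.

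The 1475 far regions are 8.44% of all merged regions and 71.3% of the 2068 regions called in every infested list and in no control list. Being far from control was common to regions without a control call, whatever the number of infested lists that called them. Of the 11043 regions that no control list called, 68.7% lay more than 10 kb from a control region. The share was 66.6% of the 4729 regions called in 1 infested list, 69.4% of 2338 regions called in 2, 70.1% of 1908 called in 3 and 71.3% of 2068 called in all 4. These shares rest on the calls that define the regions and are given as a description.

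The far regions lay at a median of 28.8 kb from the nearest control region, with quartiles at 17.7 and 49.6 kb. Of the 1475, 448 lay at 10 to 20 kb, 662 at 20 to 50 kb, 281 at 50 to 100 kb, 74 at 100 to 200 kb and 10 beyond 200 kb. The limit of 10 kb does not fall in a gap of the distribution. Infested-only regions were most frequent from 6 to 8 kb, with 177 regions, and 112 lay from 10 to 12 kb. Closer in they were few, with 38 regions under 2 kb and 65 from 2 to 4 kb.

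**Figure D1:**
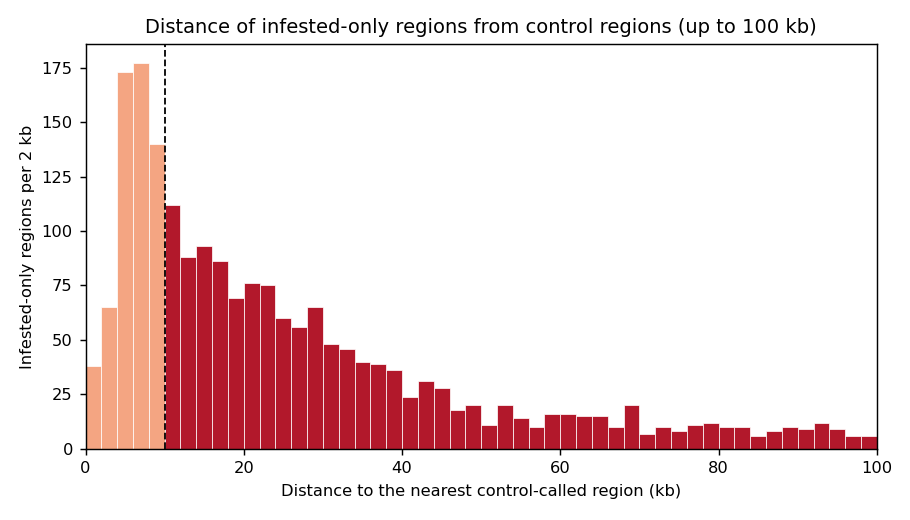
Number of regions called in all 4 infested lists and in no control list, per 2 kb of distance to the nearest control-called region, up to 100 kb (84 regions lie farther). The dashed line marks 10 kb; pale bars are near regions and dark bars far regions, and the count falls smoothly across the limit, from 140 regions at 8 to 10 kb to 112 at 10 to 12 kb.

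Regions just inside and just outside the limit had similar values. The far region nearest to control, chromosome 2 from 10083265 to 10084216, lay 10.012 kb away and showed folds of 4.03 and 3.73 in the 3 h lists and 5.09 and 5.86 in the 12 h lists. The fold is the authors' enrichment of a peak's summit over the local background of its own library, and the highest fold of a region in a list is used. Next came chromosome 1 from 28380865 to 28381688, at 10.026 kb, at folds of 4.52, 3.55, 4.59 and 3.17 in 3 h replicates 1 and 2 and 12 h replicates 1 and 2. The same order of libraries is kept for every set of 4 values below.

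The third far region by distance, chromosome 11 from 23930979 to 23931712, lay at 10.058 kb, at folds of 4.28, 4.72, 3.67 and 3.45. On the other side of the limit, chromosome 12 from 12143804 to 12144532 lay at 9.961 kb, at folds of 3.12, 5.49, 5.74 and 4.77. Chromosome 6 from 23438844 to 23440230 lay at 9.953 kb, at folds of 4.63, 3.82, 3.92 and 3.40. The 3 h and 12 h values of these 5 regions overlap or run in either order. Chromosome 2 from 5654598 to 5655495, at 9.938 kb, showed folds of 4.48, 3.62, 4.20 and 5.76.

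The far regions were spread over all 12 chromosomes. Chromosome 1 held 206 (14.0%), chromosome 3 held 181 (12.3%) and chromosome 2 held 154 (10.4%), and the fewest, 76 (5.15%), were on chromosome 10. These shares lay close to those of all regions called in the 4 infested lists, which were 13.9% on chromosome 1, 12.4% on chromosome 3, 11.5% on chromosome 2 and 5.36% on chromosome 10. On chromosome 5 the share was 8.75%, against 8.02% of all regions called in the 4 infested lists and 7.38% of control-called regions. The part of infested-only regions that was far ran from 66.4% on chromosome 2 to 76.7% on chromosome 8.

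About the same number of far regions had a nearest control neighbour called in 1 control list as in both. For 796 of them (54.0%) that neighbour was called in 1 control list, and for 679 (46.0%) in both. Among all 6425 control-called regions, 3217 (50.1%) were called in 1 list. At 1 far region there was no control region between it and a chromosome end.

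Stretches free of control calls that held far regions were long. The median far region lay in a stretch of 113 kb between control regions. Counted as stretches, 1079 of 6413 held at least 1 far region, with a median length of 97.7 kb, against 32.4 kb for all stretches. A stretch must exceed 20 kb to hold a far region at all, and 4210 did. The median of all stretches includes the shorter ones, so the rule helps to set this difference in length. Most of the 1079 held a single far region: 787 held 1, 212 held 2 and 80 held 3 or more.

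The most in 1 stretch was 5 far regions, in 3 places. On chromosome 1 the stretch from 14153704 to 14355683, of 202 kb, held 5 far regions among 10 regions called in infested lists. Another on chromosome 1, from 14878621 to 15193055, held 5 among 6. The third, on chromosome 9 from 17572100 to 17881611, held 5 among 15. The longest stretch of the genome without a control call, on chromosome 4 from 16686205 to 18168811, was 1483 kb long and held 14 infested-called regions, of which 1 was a far region. The other 13 were missing from at least 1 infested list or lay 10 kb or less from a control region.

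The rule leaves no control-called region within 10 kb of a far region, so neighbours there can come from infested lists alone. Of the 1475, 742 (50.3%) had no other merged region within 10 kb, a share that the rule helps to set. Another infested-only region lay within 10 kb of 192 far regions (13.0%) and of 53 near regions (8.94%). When far regions 20 kb or less apart were joined, 1167 remained single, 262 formed 131 pairs, 42 formed 14 groups of 3, and 4 formed 1 group.

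That group of 4 lay on chromosome 3 from 4212093 to 4249932, a span of 37.8 kb. Its first region, from 4212093 to 4212824, showed folds of 3.37, 4.14, 4.23 and 3.33. The second, from 4218159 to 4219057, showed folds of 3.78, 3.40, 4.01 and 3.10. In these 2 regions the folds of the 3 h and 12 h lists overlapped. The third, from 4236731 to 4237865, showed folds of 3.32, 2.83, 5.54 and 4.18, and the fourth, from 4248949 to 4249932, had 3.55, 3.15, 4.64 and 4.07. In this second pair both 12 h folds were above both 3 h folds.

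The signal at far regions was modest in depth. Summit coverage was recovered as a whole number of fragments from the authors' fold and p-value for 100% of peaks. The medians at far regions were 15, 16, 13 and 13 fragments, with lowest values of 8, 8, 6 and 6 and highest values of 45, 42, 46 and 43. Median folds were 3.83, 3.90, 4.20 and 4.20. The quartiles of the folds ran from 3.38 to 4.41 in 3 h replicate 1, from 3.36 to 4.46 in 3 h replicate 2, from 3.62 to 4.88 in 12 h replicate 1 and from 3.67 to 4.94 in 12 h replicate 2. The far median stood just above the midpoint of 3 h replicate 1, and above 56.6%, 55.3% and 55.2% of the nuclear regions of the other lists.

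Control lists did call regions of such folds. The mean of the 4 far medians, taken over both times, was 4.03 ± 0.195 (SD, n = 4). A lower fold was found at 67.1% of the nuclear regions of control replicate 1 and at 61.0% of those of control replicate 2. Folds of different lists do not share a scale, so these 2 shares are a rough description alone. The control lists were the shorter ones, with 5150 and 5644 peaks against 11738 to 14010 in the infested lists. The genome background, taken as the lowest local background in a list, came to 2.43 and 2.004 fragments for the controls and to 2.13, 2.32, 1.49 and 1.43 for the infested lists. Read totals were not used, and the part of depth in the missing control calls was not tested. The lowest −log10 p that a control list accepted was 3.21 in replicate 1 and 3.18 in replicate 2, against 2.95, 2.89, 2.91 and 2.91 in the infested lists. At 72 far regions (4.88%) at least 1 infested peak was under the 3.21 of control replicate 1. The same count was not made over other regions. Without a control call a region was under the authors' threshold in that library, and it may still carry the mark.

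The strongest far regions were ranked by the lowest of their 4 folds. This lowest fold had a median of 3.38 over the far regions and ran from 2.13 to 6.42. The top region, chromosome 1 from 41854041 to 41855378, showed folds of 6.88, 6.42, 7.11 and 9.13, from summit coverages of 25, 27, 25 and 38 fragments over local backgrounds of 2.78, 3.36, 2.66 and 3.27. Both 12 h folds were above both 3 h folds there. It lay 21.8 kb from the control region on its left and 41.8 kb from the one on its right.

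The second, chromosome 6 from 14647095 to 14648184, showed folds of 6.10, 8.16, 7.88 and 6.67, from coverages of 26, 33, 33 and 31 fragments. The third, chromosome 8 from 6838180 to 6838821, had the most even values of these 10, 6.08, 6.33, 6.21 and 6.64, from 18, 20, 17 and 17 fragments. At both regions the times overlapped. Their strongest summits in the 4 lists spanned 256 bp and 40 bp.

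The fourth, chromosome 3 from 9117430 to 9118492, showed folds of 5.82, 7.03, 7.25 and 8.16, with the strongest summits of the 4 lists inside 17 bp, the smallest span of any far region. The fifth, chromosome 11 from 227198 to 228024, showed folds of 6.33, 5.79, 5.92 and 7.37. The sixth, chromosome 6 from 17722290 to 17723055, showed folds of 5.77, 8.04, 8.49 and 6.18 and was the farthest of these 10 from control, at 89.1 kb. In the fourth region the 12 h folds were the higher pair, and in the fifth and sixth the times overlapped.

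The seventh, chromosome 5 from 17267100 to 17267643, was the narrowest of the 10 at 544 bp and showed folds of 6.72, 6.03, 5.63 and 7.41. The eighth, chromosome 6 from 4183081 to 4184015, showed folds of 5.50, 6.44, 6.33 and 5.90. The ninth, chromosome 7 from 5181877 to 5183090, showed folds of 5.48, 8.04, 5.55 and 6.21, with 39 fragments in 3 h replicate 2 and 21 to 24 in the others. In these 3 regions the times overlapped. The tenth, chromosome 3 from 21179885 to 21180750, showed folds of 5.93, 5.43, 7.33 and 7.79, with both 12 h values above both 3 h values.

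**Figure D2:**
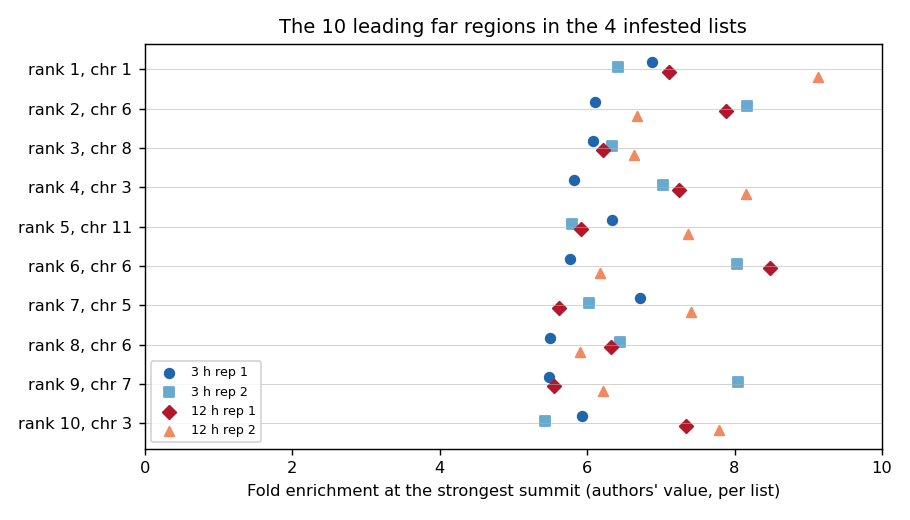
Authors' fold enrichment at the strongest summit (horizontal axis, no unit) of the 10 far regions with the highest lowest fold, one row per region and one symbol per infested list. All folds lie between 5.43 and 9.13, and the 3 h and 12 h symbols overlap in 7 of the 10 regions.

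In 3 of these 10 regions both 12 h folds were above both 3 h folds, and in none was it the other way. Over all far regions the counts were 504 (34.2%) and 129 (8.75%), with the times overlapping at 842. Of the 6271 regions called in all 4 infested lists, 32.3% had the higher pair at 12 h and 8.93% at 3 h, so the far regions lay near this background in both directions. Folds of different lists do not share a scale, since the genome background was lower at 12 h, and no test was made of fold between the times.

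At the other end, the far region with the lowest minimum was chromosome 10 from 19167875 to 19168533, at folds of 2.13, 3.10, 2.69 and 2.84. The order of far regions by fold was loosely shared by the lists. The highest of the 4 folds of a region was a median of 1.40 times the lowest, and at most 2.79 times. Of the 295 far regions of highest fold in a list, 39 (13.2%) were among the highest 295 in all 4 lists, and 695 were so in at least 1. The rank correlation of fold over the 1475 regions was 0.38 for the 3 h pair, 0.38 for the 12 h pair and 0.31 to 0.36 between the times. Over the 593 near regions it was 0.42, 0.42 and 0.35 to 0.42. Over the 2657 regions called in all 6 lists it was 0.64, 0.62 and 0.56 to 0.60. These correlations are across regions within the same libraries, which are not independent replicates, and each rests on few fragments per region.

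The positions of summits in the 4 lists were compared as well. The strongest summits of a far region spanned a median of 257 bp, with quartiles at 152 and 409 bp, and at 170 regions (11.5%) all 4 lay within 100 bp. Near regions had a median of 247 bp (65 of 593 within 100 bp) and regions called in all 6 lists 264 bp (13.1%). Over regions with 1 summit in every infested list the median span was 214 bp at 1001 far regions, 202 bp at 426 near regions and 180 bp at 1143 regions called in all 6 lists. All 4 summits then lay within 100 bp at 14.4%, 14.1% and 22.8% of them. Between pairs of lists the median distance at far regions was 113 bp for the 3 h pair, 115 bp for the 12 h pair and 110 to 121 bp between the times. Thus lists of 1 time placed their summits no closer together than lists of different times did.

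**Figure D3:**
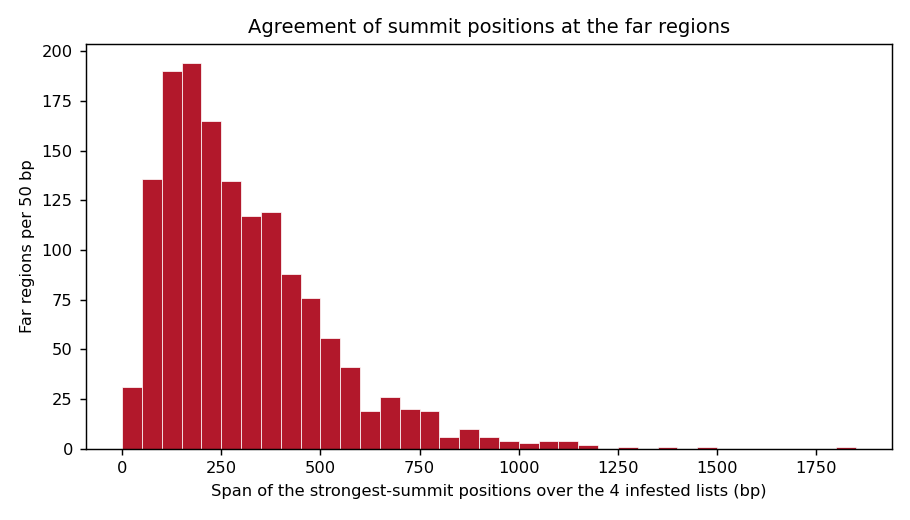
Number of far regions (vertical axis) by the distance in bp between the outermost of their 4 strongest summits, 1 per infested list, in steps of 50 bp. The quartiles are 152 and 409 bp, and the fullest step, 150 to 200 bp, holds 194 regions.

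Most far regions were single, narrow peaks. In every infested list 1001 of them (67.9%) had 1 summit, and 17 (1.15%) had more than 1 in every list. Near regions had 71.8% and 0.337%, and the regions called in all 6 lists had 43.0% and 6.77%. Called width at far regions had medians of 592, 634, 653 and 683 bp. Merged over the lists, far regions had a median width of 922 bp, ran from 398 to 2753 bp and together covered 1.43 Mb.

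A few were broad. The widest, chromosome 9 from 21132712 to 21135464, spanned 2753 bp, with called widths of 1924, 1593, 2256 and 2547 bp and 4, 2, 2 and 3 summits. Chromosome 11 from 16985337 to 16987662 had the most summits of any far region, 13 in all, with 3, 3, 4 and 3 per list and called widths of 2114, 2111, 2326 and 2075 bp. Both were broad in all 4 lists. Chromosome 9 from 17093140 to 17095232 had 10 summits and widths of 1239, 1551, 1509 and 2036 bp. Several far regions had 9 summits, and the widest of these by merged width are named. Chromosome 1 from 34943886 to 34945687 had widths of 1692, 864, 1631 and 1534 bp, the narrowest of them in 3 h replicate 2. Chromosome 5 from 25713597 to 25715306 had widths of 1193, 1036, 1353 and 1500 bp.

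Others of the widest regions were broad in some lists alone. Chromosome 12 from 13453381 to 13455933 was called over 459 bp in 3 h replicate 1 and over 1716, 1125 and 1418 bp in the others, and its strongest summits spanned 1818 bp, the largest span of any far region. Chromosome 10 from 13882802 to 13885004 was called over 1050, 535, 2203 and 1219 bp. Chromosome 7 from 4821270 to 4823479 had 2 summits in every list and widths of 1237, 1805, 1778 and 960 bp. For such regions the merged interval joins calls that differ between lists.

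Of the 5 regions farthest from control, 3 lay in the same stretch on chromosome 11, of 689 kb from 24669977 to 25358550. The farthest of all, from 24950806 to 24952270, was 280.8 kb from control and showed folds of 2.98, 3.87, 4.31 and 3.60. Its neighbour from 24932526 to 24933279, at 262.5 kb, showed folds of 3.67, 4.76, 5.12 and 8.28, the last from 27 fragments against 13, 15 and 14 in the other lists. The 3 h and 12 h folds overlapped in the first region and not in its neighbour. The region from 24911587 to 24912384, at 241.6 kb, showed folds of 3.23, 4.16, 4.35 and 4.68, again with both 12 h folds above both 3 h folds.

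The others were on chromosomes 9 and 3. Chromosome 9 from 11240408 to 11241000, at 258.8 kb, showed folds of 3.19, 3.66, 4.46 and 4.12, from 9, 12, 11 and 9 fragments. Both 12 h folds were above both 3 h folds here too. Chromosome 3 from 15755064 to 15756059, at 254.0 kb, showed folds of 4.85, 2.73, 4.89 and 3.71. In this last region each time had a high and a low replicate.

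Far regions had a slightly higher fold than near regions in each infested list. Both sets passed the same calls and were separated by their distance from control, so the comparison asks whether isolated regions differ from those beside control acetylation. The median log2 fold was 1.94, 1.96, 2.07 and 2.07 at far regions and 1.89, 1.87, 2.01 and 2.02 at near regions. The difference was 0.065 ± 0.020 (SD, n = 4) on the log2 scale, a ratio of 1.05, and positive in 4 of 4 libraries. An exact sign-flip permutation test over the 4 libraries, two-sided, gave p = 0.13, the smallest it can give (adjusted p = 0.167 over 4 tests), so this difference could not reach 0.05.

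Both the local background and the summit coverage were lower at far regions than at near regions, although the fold was higher. Median local background was 3.02, 3.29, 2.28 and 2.27 fragments at far regions and 3.39, 3.71, 2.66 and 2.57 at near regions, a mean log2 difference of −0.19. Median summit coverage was 15, 16, 13 and 13 fragments at far regions and 16, 17, 14 and 14 at near regions, a mean log2 difference of −0.099. Measured by coverage in place of fold, the far regions were thus the lower set in all 4 libraries (exact sign-flip p = 0.13, the smallest possible; a comparison chosen after the data were seen). The part of the local background in the fold difference was not tested beyond these values.

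**Figure D4:**
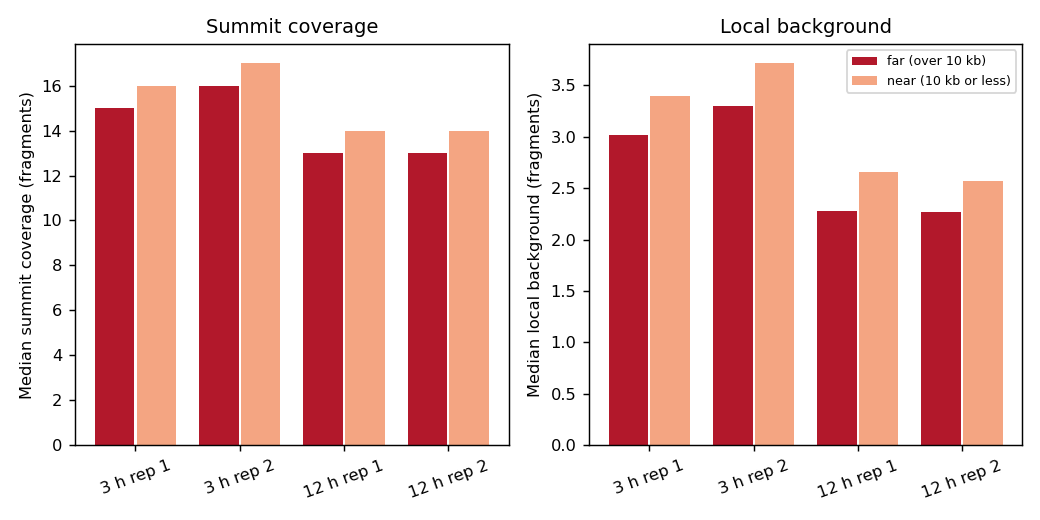
Median summit coverage (left) and median local background (right), both in fragments, at far and near regions in each infested list; bars start at 0. Far regions are lower than near regions in both quantities in all 4 lists.

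Local background also differed with distance among the far regions. Median local background fell from 3.19, 3.49, 2.42 and 2.44 fragments at 10 to 20 kb from control to 2.53, 2.86, 1.86 and 1.86 at 100 to 200 kb. Median fold was 3.77, 3.83, 4.10 and 4.14 in the first of these bins and 3.93, 4.05, 4.33 and 4.65 in the second. Fold did not follow distance throughout: it was 4.06, 3.95, 4.32 and 4.36 at 50 to 100 kb and 3.60, 3.89, 4.33 and 4.12 beyond 200 kb. The bin of 100 to 200 kb holds 74 regions and the last 10. Width had no common direction, with medians of 586, 628.5, 655 and 708 bp in the first bin and 576, 665.5, 660 and 581.5 bp in the second.

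Far regions were also a little wider than near regions. Median called width was 592, 634, 653 and 683 bp at far regions and 578, 610, 638 and 656 bp at near regions. The difference in log2 width was 0.045 ± 0.013 (SD, n = 4), a ratio of 1.03, and positive in 4 of 4 libraries (exact sign-flip p = 0.13, the smallest possible; adjusted p = 0.167). It was 0.013 at a −log10 q of at least 5 (exact p = 0.5) and 0.029 with a limit of 5 kb (exact p = 0.75), so the libraries no longer had 1 direction there. More than 1 summit was listed at 10.3%, 15.7%, 12.4% and 9.36% of far regions and at 8.94%, 13.5%, 11.5% and 7.42% of near regions. The mean number of summits per region was 1.13 and 1.11. The difference in that number was 0.015 ± 0.0029 (SD, n = 4) and positive in 4 of 4 libraries (exact sign-flip p = 0.13, adjusted p = 0.167); it was −0.041 when a −log10 q of at least 5 was asked of every peak and −0.00098 without control replicate 2.

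**Figure D5:**
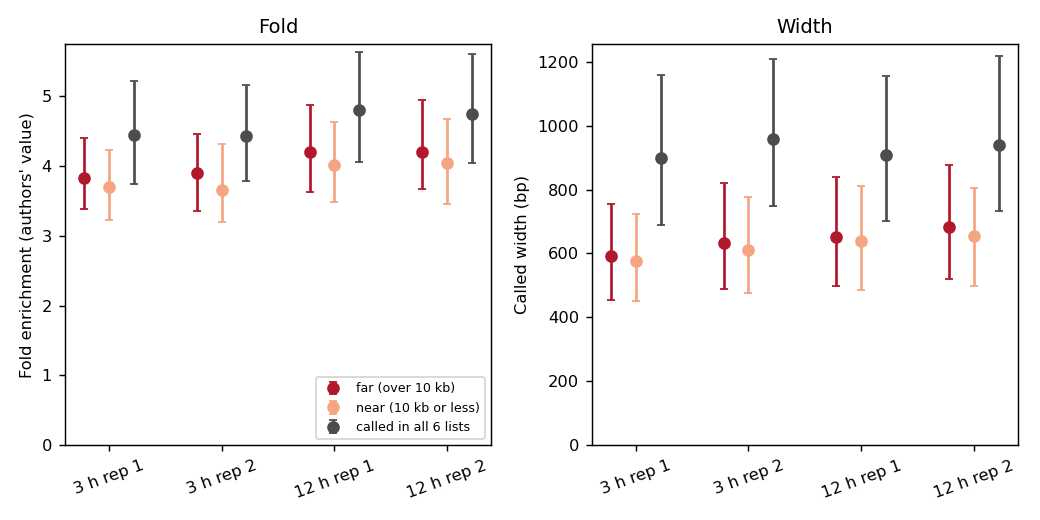
Median (point) and quartiles (ends of the bar) of the authors' fold enrichment (left, no unit) and of called width in bp (right) over far, near and always called regions in each infested list. Far medians lie just above near medians in all 4 lists, while regions called in all 6 lists have higher folds, from 4.42 to 4.80, and widths of 900 to 959 bp.

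Between the times, the called width of far regions was larger in the 12 h libraries, but 2 libraries against 2 cannot reach 0.05. The mean of the library medians was 613 ± 29.7 bp after 3 h and 668 ± 21.2 bp after 12 h (SD over 2 libraries), and both 12 h medians were above both 3 h medians. The log2 difference was 0.12, a ratio of 1.09 (exact permutation p = 0.33, the smallest that 2 against 2 libraries allow; adjusted p = 0.33). It was 0.053 at a −log10 q of at least 5, and 0.10 over regions with 1 summit in every infested list (exact p = 0.667), where the times overlapped. Near regions had a log2 difference of 0.12 as well. Regions called in all 6 lists had −0.0080, from 929.5 ± 41.7 bp after 3 h to 924 ± 21.2 bp after 12 h (SD over 2 libraries).

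The width of far regions relative to always called regions differed by 0.13 on the log2 scale between the times. The values per library were −0.60 and −0.60 at 3 h and −0.48 and −0.46 at 12 h (exact permutation p = 0.33, again the smallest possible; chosen after the data were seen). A pair of library measures moved with the width. The narrowest region of a list measured 339, 323, 345 and 372 bp, and the genome background was lower at 12 h. Their part in the difference was not tested.

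Region by region, 372 far regions (25.2%) were wider in both 12 h lists than in both 3 h lists, and 163 (11.1%) were wider in both 3 h lists. At the other 940 the times overlapped. Over the 6271 regions called in all 4 infested lists the shares were 22.1% and 15.1%. The far shares lay near this background in both directions.

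The number of far regions depended on how strictly peaks were called. With every list shortened to 5079 peaks, the length of the shortest, 164 regions met the rule, and 151 of the 1475 far regions (10.2%) were among them. With a −log10 q of at least 5 asked of every peak, 677 regions met it, of which 146 overlapped a far region, since a stricter limit removes control calls as well as infested ones. All 10 leading regions were kept under both settings. Their −log10 q was 6.54 or more in every infested list, so the limit of 5 could not remove them. The shortened lists likewise kept the peaks of highest −log10 q. Without control replicate 2 the count was 2396 and without control replicate 1 it was 2053, each including all 1475 far regions. Leaving out a control list can only remove control calls, so every far region had to stay.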

How the data were processed

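The genome build was IRGSP-1.0 and the tools were MACS2 2.1.0, Bowtie 1.1.2, Trimmomatic 0.33 and bcl2fastq 2.17, per the submitters' processing notes; settings, duplicates and input controls are not described there. The authors deposited 1 peak list per library, not pooled, with 5150 to 14010 peaks. Each deposited peak has a fold (a ratio of summit to local background), a −log10 p, a −log10 q and a score, which was not used. The lowest −log10 q was 1.30. Fold, p and q are the authors' values within a list.

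Members and comparison sets were chosen with earlier results of these data known. Regions were merged at 1 bp overlap. Whole coverage c and local background b were recovered from fold = (c + 1)/(b + 1) and the Poisson p, within 0.001 of the listed −log10 p; in the lists c had medians of 13 to 17 fragments, which limits the precision of each value. Tests were exact permutation tests over libraries, two-sided, with Benjamini-Hochberg adjustment over 4 tests; scripts were tested on simulated data. Named regions were the 10 with the highest lowest fold, the 5 farthest, the 3 on either side of the limit, the 5 widest, the 5 with most summits (ties by merged width) and the largest group within 20 kb. Python 3.11.15, NumPy 2.4.6, pandas 2.3.3 and SciPy 1.17.1 were used. Planned gene-start and sequence summaries were not made, since the gene table at hand belongs to another assembly.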

Additional observations from a re-analysis of the deposited data

Results flagged for a closer look

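On the unplaced scaffolds, which the comparisons leave out, 1 of 13 merged regions was called in all 4 infested lists and in no control list, on a scaffold with no control region. It was singled out because the control lists have no call there, which does not show that the mark was absent. Its folds were 3.52 and 4.52 at 3 h and 5.47 and 5.32 at 12 h, and its called widths were 396, 660, 982 and 919 bp.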

How the results depend on the processing

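The number of far regions, 1475, was 677 at a −log10 q of at least 5 and 164 with lists of equal length. It ranged from 1687 to 2396 when each library was left out, and the highest was without control replicate 2. Leaving out a library asks for fewer calls, or for fewer lists without a call, so the rule itself raises the count. Under the other 6 settings of merging, distance and p threshold it stayed within 1.5 times. The difference in log2 fold between far and near regions kept its direction under 16 of 17 settings (0.062 to 0.076 without each library) and reversed to −0.099 for summit coverage. Its size varied with the distance limit. It was 0.14 at a limit of 5 kb, 0.059 at 20 kb and 0.040 against near regions 5 to 10 kb from control. The mean difference in log2 width, far minus near, kept its direction under all 16 settings (0.026 to 0.069 without each library). The lowest was 0.013, at a −log10 q of at least 5 (exact p = 0.5), and it was 0.029 at the 5 kb limit (exact p = 0.75). With lists of equal length and without either control replicate the exact sign-flip p was 0.25. Under these settings not all 4 libraries were positive. Summits per region reversed to −0.041 at a −log10 q of at least 5, ranged from −0.00098 to 0.019 without each library, and was 0 as a median, since most regions have 1 summit. The 12 h minus 3 h log2 width kept its direction under all 16 settings (0.053 at a −log10 q of at least 5, 0.10 with 1 summit in every infested list, and 0.067 to 0.18 without each library; the lone library of a time has no spread of its own). The cause of these changes was not tested. No test could pass 0.05 under any setting. With the replicate number as a block the width difference was 0.12 (exact sign-flip p = 0.5, the smallest 2 pairs allow). Deviations of same-numbered libraries at far regions correlated at 0.014 for width and −0.0041 for fold, so the numbers were not used to pair libraries. The settings for a common −log10 p, for distance from regions of both control lists and for summit coverage were chosen after seeing the data. Gene-start alternatives were not run. Low coverage limits each region's values.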

Other observations

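The opposite case was small. Of 46 regions called in both control lists and in no infested list, 14 (30.4%) lay more than 10 kb from any region called in an infested list, and their median distance was 5.99 kb. Infested lists are longer than control lists, so their regions lie closer together, and the 2 shares cannot be set against each other.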
